A study of Homo sapiens with 16 samples.

Results

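The core circadian clock was followed here through 10 of its genes, NPAS2, CLOCK, ARNTL, ARNTL2, PER1, PER2, PER3, CRY1, CRY2 and NR1D2, in cultured U-87MG cells. U-87MG is a long-established line from a human glioblastoma. All 10 were found among 14040 genes that the array annotation pairs with a row of their own, each with a single row. The set was chosen by pathway membership, and NPAS2 was set against the rest because its level in these same arrays was already known to be lower with SR1 and higher when I3P was added to SR1. The values of NPAS2 across treatments are therefore given as a description, and nothing is read from any call of it in these comparisons.

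The study measured total RNA from U-87MG cells on 16 single-colour expression arrays, 4 for each of 4 treatments. Control cells received the carrier, 0.1% DMSO. The other groups received 25 µM I3P (indole-3-pyruvate, a keto acid made from tryptophan), 1 µM SR1 (StemRegenin 1, an antagonist of the aryl hydrocarbon receptor, AHR), or both agents together, written I3P+SR1. The question behind the design was how the metabolite and the antagonist, alone and together, alter gene expression; neither the length of treatment nor the phase of the cells' clocks at harvest is given in the sources used here. All groups are 1 cell line, and each holds arrays numbered as biological replicates 1 to 4, with replicates 1 and 2 titled as 1 series (SLI) and replicates 3 and 4 as another (SMI). Values are log2 expression after robust multi-array averaging (RMA), so a difference of 1 is a factor of 2 (a doubling). Treatments are compared between arrays for the same gene. The rank of a gene's mean among all genes is given only as a rough guide to its level.

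In the mammalian clock, CLOCK or its close relative NPAS2 pairs with ARNTL (also called BMAL1) or ARNTL2 (BMAL2) through their basic helix-loop-helix and PAS domains. These pairs bind E-box sequences and switch on the PER and CRY genes, whose proteins return to the nucleus and hold the activators back. A second loop runs through nuclear receptors, in which NR1D1 and NR1D2 repress ARNTL and NPAS2 and the ROR receptors activate them. AHR belongs to the same bHLH-PAS family, pairs with ARNT, and binds a DNA element, the xenobiotic response element (XRE), whose core is GCGTG.

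The 300 bases around the start of transcription are shown for 4 members: NPAS2, whose level moved most with the treatments, CLOCK, its relative, ARNTL, which varied most between replicate numbers, and PER1, the member with an E-box in this window. Sequences are from RefSeq (build GRCh38.p14), each 5′ to 3′ on the strand of its gene, from 250 bases before to 50 bases after the annotated start. Capitals mark the E-box CACGTG, the XRE core GCGTG and the nuclear receptor element AGGTCA, each searched on both strands. NPAS2 lies at chr2:100819889-100820188 on the plus strand, CLOCK at chr4:55546860-55547159 on the minus strand, ARNTL at chr11:13277540-13277839 on the plus strand and PER1 at chr17:8152355-8152654 on the minus strand.
NPAS2: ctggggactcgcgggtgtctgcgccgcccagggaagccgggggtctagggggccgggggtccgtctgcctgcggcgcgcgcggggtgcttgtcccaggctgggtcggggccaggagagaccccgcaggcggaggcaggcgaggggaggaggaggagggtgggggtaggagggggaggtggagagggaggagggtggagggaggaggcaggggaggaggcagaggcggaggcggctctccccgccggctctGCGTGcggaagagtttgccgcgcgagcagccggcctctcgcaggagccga
CLOCK: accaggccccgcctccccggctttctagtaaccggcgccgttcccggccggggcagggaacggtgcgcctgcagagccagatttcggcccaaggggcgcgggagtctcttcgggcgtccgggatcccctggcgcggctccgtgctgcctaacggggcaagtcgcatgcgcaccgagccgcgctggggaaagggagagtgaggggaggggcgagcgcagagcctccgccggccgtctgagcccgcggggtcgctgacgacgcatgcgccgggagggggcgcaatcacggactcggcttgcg
ARNTL: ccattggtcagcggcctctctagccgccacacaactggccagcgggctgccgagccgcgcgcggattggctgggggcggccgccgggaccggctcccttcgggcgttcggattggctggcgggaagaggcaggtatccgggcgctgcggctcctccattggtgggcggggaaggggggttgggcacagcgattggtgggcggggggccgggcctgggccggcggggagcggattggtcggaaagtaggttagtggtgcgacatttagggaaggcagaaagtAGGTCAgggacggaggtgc
PER1: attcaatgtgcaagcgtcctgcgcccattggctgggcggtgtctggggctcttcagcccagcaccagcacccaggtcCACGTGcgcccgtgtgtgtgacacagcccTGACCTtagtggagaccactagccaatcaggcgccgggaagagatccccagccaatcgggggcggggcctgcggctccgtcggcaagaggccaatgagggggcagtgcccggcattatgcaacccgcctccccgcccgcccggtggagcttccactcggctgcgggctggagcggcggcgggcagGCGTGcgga

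NPAS2 held 1 XRE core, which begins at the annotated start itself, and neither of the other motifs. CLOCK held none of the 3. ARNTL held 1 AGGTCA, 32 bases into the transcript. PER1 held an E-box at position -173 from the start, AGGTCA in the reverse direction and an XRE core 42 bases into the transcript. Over all 10 members, 1 promoter held the E-box, 4 the XRE core, 3 the nuclear receptor element and 0 the longer XRE form TNGCGTG, which contains the core. Among 35116 windows of the same length these shares were 7.256% for CACGTG, 36.54% for GCGTG, 13.83% for AGGTCA and 5.51% for TNGCGTG. The E-box and the reverse XRE core share their first 4 letters. A match describes letters only and is not a measured binding site.

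The array of I3P replicate 1 stood apart: across genes it correlated with the other arrays at 0.869 to 0.907, against 0.917 to 0.979 among the other 15, and the differences between I3P and DMSO are also given without it. The mesenchymal and glial markers VIM (mean log2 expression 12.82) and FN1 (13.15) lay above 99.8% and 99.9% of genes, CD44 above 86.2%, GFAP above 37.2% and NES above 22.8%; SOX2, OLIG2 and S100B have no row of their own. The 10 measured markers of blood, epithelial, neuronal and endothelial cells lay above 64.5% of genes at most (SNAP25), and an RMA value has no zero that would mark absence. CYP1B1, the AHR target used as a reference, fell by 2.57 with SR1 (SE 0.15, limma adjusted p = 8.5e-08) and was 2.56 higher with I3P+SR1 than with SR1 (adjusted p = 9.1e-08). Over all 14040 genes, limma called 0.164% in SR1 against DMSO (23 genes, 1 higher and 22 lower) and 0.114% in I3P+SR1 against SR1 (16 genes, all higher). It called 0% in I3P against DMSO, in I3P+SR1 against I3P and in I3P+SR1 against DMSO, where 395, 466 and 194 genes had an unadjusted p under 0.05.

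NPAS2 encodes the partner that can stand in for CLOCK, and its level was low in the SR1 group. In DMSO the arrays of replicates 1 to 4 read 10.59, 10.52, 10.21 and 9.64 (mean 10.24 ± 0.43, SD, n = 4). In SR1 they read 9.55, 9.72, 9.37 and 9.05 (9.43 ± 0.28). Every SR1 array was below the DMSO array of the same number, although the groups overlap, because DMSO replicate 4 was lower than SR1 replicate 2. The same-numbered differences were -1.04, -0.80, -0.84 and -0.58. The difference of the group means was -0.82 (SE 0.22 in the fit with no block, 0.11 with the replicate number as a block), a level 1.76-fold lower. As in any bulk measurement, fewer cells with the transcript and less transcript per cell cannot be told apart.

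With I3P+SR1, NPAS2 read 10.38, 10.39, 10.41 and 10.02 (10.30 ± 0.19, n = 4), and these arrays did not overlap those of SR1. The same-numbered differences from SR1 were 0.83, 0.67, 1.04 and 0.96. The difference of the group means was 0.88 (SE 0.22 with no block, 0.11 with it). Both differences use the same 4 SR1 arrays, so they are not independent of each other. I3P alone gave 10.53, 10.83, 10.55 and 9.89 (10.45 ± 0.40), spread across the range of the DMSO arrays and above it. Against DMSO the I3P difference was 0.21 (SE 0.22), or 0.18 without I3P replicate 1, and I3P+SR1 differed from DMSO by 0.06, with same-numbered differences of -0.21, -0.13, 0.19 and 0.38. The order of means was SR1, DMSO, I3P+SR1 and I3P, and of these neighbours only SR1 and DMSO were further apart than the SD within either group. The interaction, that is how much more I3P raised the level in the presence of SR1 than in its absence, was 0.67 (SE 0.31), or 0.70 without I3P replicate 1.

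**Figure D1:**
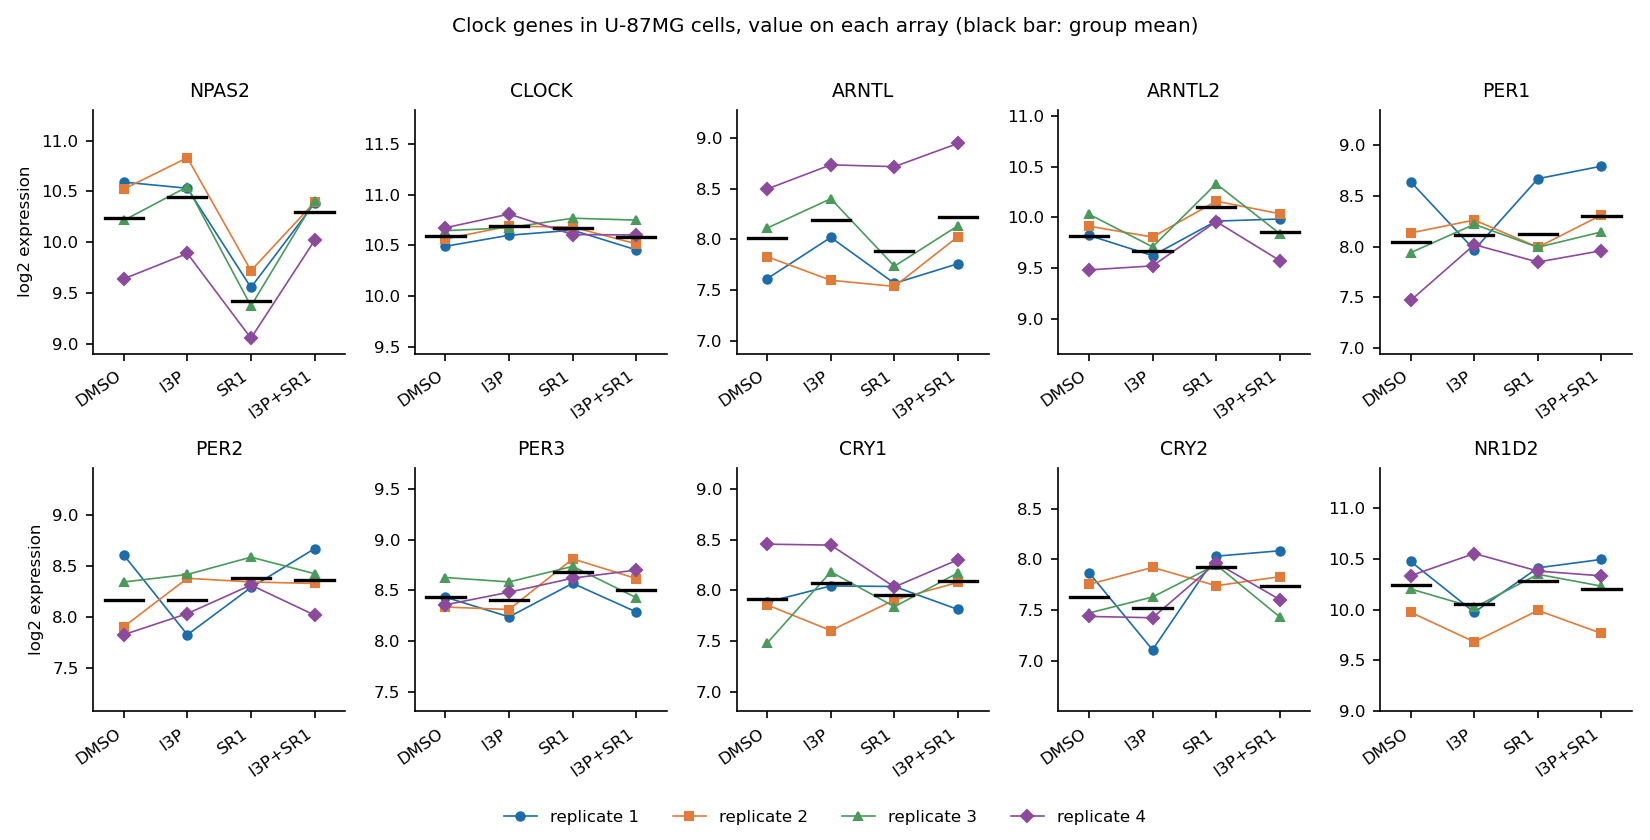
Log2 expression of the 10 clock genes in each of the 16 arrays, by treatment, with points for replicates 1 to 4 and a bar for each group mean. NPAS2 averages 10.24 in DMSO, 9.43 in SR1 and 10.30 in I3P+SR1. Its SR1 arrays overlap those of DMSO but not those of I3P+SR1, and each of the other genes keeps overlapping groups in both comparisons.

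The 2 title series showed the same direction for NPAS2. Within SLI it was lower with SR1 by a difference of -0.92 and within SMI by -0.71, and I3P+SR1 exceeded SR1 by 0.75 and 1.00. With each array left out in turn, the differences ranged from -1.02 to -0.69 and from 0.75 to 0.97. The fit with no block called 0 of the 10 members in SR1 against DMSO and in I3P+SR1 against SR1, and 0 in the other 3 pairwise comparisons and in the interaction, where 0.00712% of all genes passed (1 gene, CYP1B1). With the replicate number as a block, the paired form of the same fit, 1 of 10 members, NPAS2, passed in both SR1 against DMSO and I3P+SR1 against SR1. Across all genes that fit called 0.321% in SR1 against DMSO and 0.321% in I3P+SR1 against SR1 (45 genes each). Nothing is read from the call of NPAS2, or from its shared direction between series and with arrays left out, since its choice used these contrasts.

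CLOCK, the activator that NPAS2 resembles, had the steadiest levels of the 10 genes. Its arrays read 10.49, 10.56, 10.64 and 10.67 in DMSO, 10.65, 10.68, 10.77 and 10.61 in SR1, and 10.46, 10.52, 10.75 and 10.60 in I3P+SR1. All 3 groups overlap, and the full range over 16 arrays was 0.35, against 1.78 for NPAS2. SR1 differed from DMSO by 0.08 (95% interval -0.12 to 0.29, limma adjusted p = 1.00). I3P+SR1 differed from SR1 by -0.10 (-0.30 to 0.11, adjusted p = 1.00).

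ARNTL, the common partner of both, read 7.61, 7.83, 8.11 and 8.50 in DMSO and 7.57, 7.54, 7.74 and 8.72 in SR1. In I3P+SR1 it read 7.76, 8.03, 8.13 and 8.95. Within each of these groups replicate 4 was the highest array, and the groups overlap over most of their range. The SR1 difference was -0.12 (95% interval -0.78 to 0.53) and the difference of I3P+SR1 from SR1 was 0.33 (-0.33 to 0.98), both with a limma adjusted p of 1.00. With the replicate block the intervals were -0.40 to 0.16 and 0.05 to 0.61, and the gene did not pass in either comparison (adjusted p = 1.00 and 0.56).

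ARNTL2, the second partner, had differences opposite in sign to those of NPAS2 and did not pass the test. Its arrays read 9.82, 9.91, 10.03 and 9.48 in DMSO and 9.96, 10.16, 10.33 and 9.96 in SR1. Each SR1 array exceeded its same-numbered DMSO array, and the groups overlap. The difference was 0.29 (95% interval -0.0051 to 0.59, limma adjusted p = 1.00), and that of I3P+SR1 from SR1 was -0.24 (-0.54 to 0.05, adjusted p = 1.00). With the replicate block the intervals were 0.09 to 0.49 and -0.45 to -0.04, which do not include 0, while the limma p adjusted over all genes was 0.44 and 0.55.

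The period genes encode the repressors that accumulate and are degraded in each cycle. PER1 read 8.64, 8.13, 7.94 and 7.47 in DMSO and 8.67, 7.99, 7.99 and 7.85 in SR1, and the groups overlap. Its difference was 0.08 (95% interval -0.41 to 0.57), and that of PER2 was 0.21 (-0.18 to 0.61). PER3 read 8.43, 8.34, 8.63 and 8.36 in DMSO and 8.57, 8.81, 8.74 and 8.62 in SR1, higher in every same-numbered pair with a single DMSO array inside the SR1 range. Its difference was 0.25 (-0.0072 to 0.50, or 0.02 to 0.47 with the replicate block, limma adjusted p = 0.72). With no block, limma gave all 3 period genes an adjusted p of 1.00.

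The cryptochromes CRY1 and CRY2, which bind and silence the activator pair, differed between SR1 and DMSO by 0.03 (95% interval -0.38 to 0.44) and 0.29 (-0.08 to 0.65), with a limma adjusted p of 1.00 for each. CRY2 ranged from 7.44 to 7.87 in DMSO and from 7.74 to 8.03 in SR1. NR1D2, the nuclear receptor that represses ARNTL and NPAS2, had means of 10.25 ± 0.21 in DMSO, 10.28 ± 0.20 in SR1 and 10.21 ± 0.31 in I3P+SR1 (n = 4 each). The difference of SR1 from DMSO was 0.04 (-0.36 to 0.43, adjusted p = 1.00), smaller than the SD within either group.

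Of the 9 members other than NPAS2, 8 had a positive and 1 a negative difference between SR1 and DMSO, and 0 passed the test (0 also at an unadjusted p under 0.05). Their median was 0.083, beside 0.0025 over all genes. Between I3P+SR1 and SR1, 3 of the 9 were positive and 6 negative, and the median was -0.077. In that comparison PER2, CRY2 and CRY1 had opposite signs in the 2 title series, with 0.18, 0.07 and -0.03 in SLI against -0.23, -0.44 and 0.30 in SMI.

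**Figure D2:**
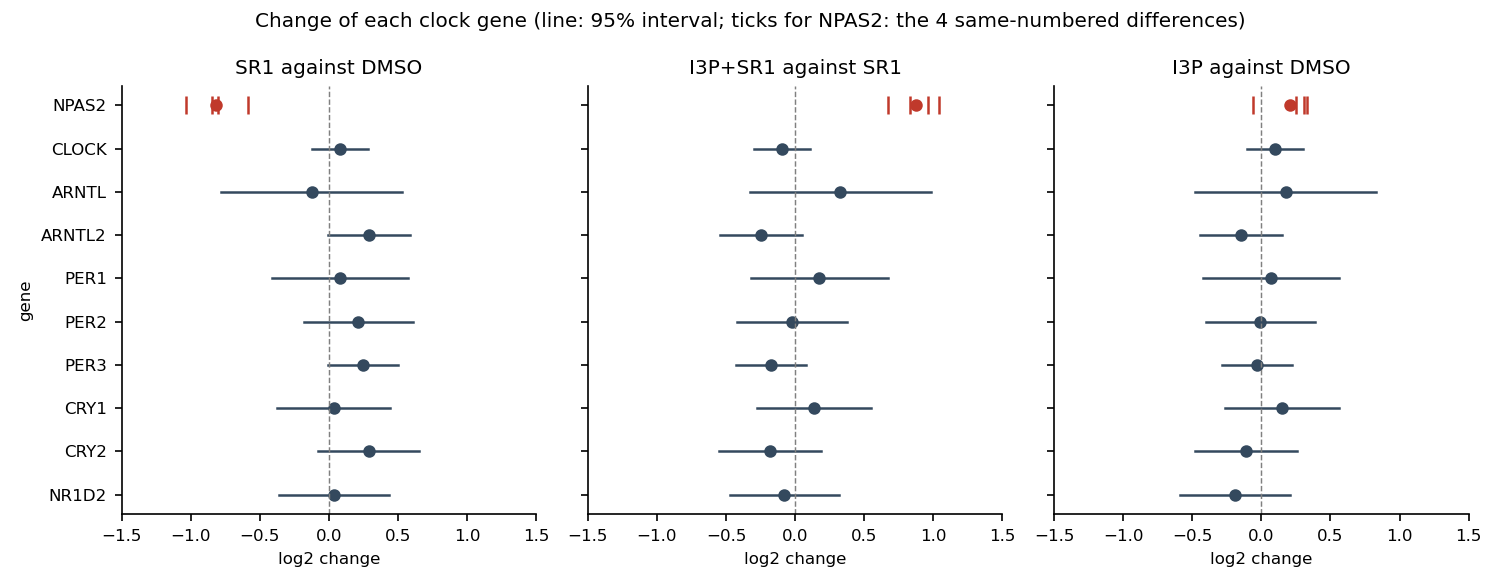
Log2 change of each clock gene in 3 comparisons, with the 95% interval of the limma fit with no block for 9 genes and, for NPAS2, the 4 same-numbered differences as ticks. NPAS2 lies at -0.82 in SR1 against DMSO and 0.88 in I3P+SR1 against SR1, and the interval of each other gene includes 0.

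Groups of 4 arrays that do not overlap occurred for 0 of 10 members between SR1 and DMSO, where 2.45% of all genes had them. Between I3P+SR1 and SR1 there was 1 member, NPAS2, beside 2.91% of all genes, and between I3P and DMSO there were 0, beside 1.57%. All 4 same-numbered differences had 1 sign for 3 members with SR1 (NPAS2 lower, ARNTL2 and PER3 higher), against 17.4% of genes. For I3P+SR1 against SR1 they did so for 4 members (NPAS2, ARNTL and PER1 higher, CLOCK lower), against 19.6%. Under I3P alone it was 1 member, CLOCK, against 13% of genes. The counts of 3, 4 and 1 of 10 include NPAS2 in the comparisons that chose it, and nothing is read from them.

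I3P without the antagonist left the other 9 members between -0.19 (NR1D2) and 0.18 (ARNTL) of DMSO, all with a limma adjusted p of 0.999; without I3P replicate 1 they lay between -0.16 (NR1D2) and 0.23 (ARNTL). The array of I3P replicate 1 was low for several repressors. PER1 was 7.97 there against 8.64 in DMSO replicate 1, PER2 was 7.82 against 8.61, CRY2 was 7.11 against 7.87, and NR1D2 was 9.97 against 10.47. Without that array the I3P difference went from 0.07 to 0.12 for PER1, from -0.01 to 0.11 for PER2, from -0.11 to 0.03 for CRY2, from -0.03 to 0.02 for PER3 and from -0.19 to -0.16 for NR1D2. PER2, PER3 and CRY2 thus changed sign with 1 array, and 0 of them passed the test either way.

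The wider pathway was counted from lists of clock and bHLH-PAS genes. Of the second loop and output regulators, 7 of 11 had a row of their own, and 0 passed in SR1 against DMSO or in I3P+SR1 against SR1. RORA, the nuclear receptor that activates ARNTL and NPAS2 transcription, averaged 9.09 ± 0.24 in DMSO, 8.57 ± 0.30 in SR1 and 9.09 ± 0.44 in I3P+SR1 (n = 4 each). Its differences of -0.52 and 0.53 had the same signs as those of NPAS2, with a limma adjusted p of 1.00 in both comparisons and unadjusted values of 0.028 and 0.027. Over all genes, 412 and 519 had an unadjusted p under 0.05 in these comparisons, which share the 4 SR1 arrays. The PAR-domain activators HLF and TEF, which act on output genes, were 0.52 and 0.39 higher with SR1. The third of that family, DBP, was at -0.08, and 0 of the 3 passed. HLF and TEF were dim, above 2.36% and 19.1% of genes. Their same-numbered differences between SR1 and DMSO ran from -0.39 to 1.46 and from -0.61 to 1.32. NR1D1 shares its row with THRA and was not analysed.

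Among 17 of 22 genes whose proteins modify or accompany the clock proteins, 0 passed in either comparison. Their differences between SR1 and DMSO ran from -0.18 for BTRC, part of the ligase that marks PER proteins for degradation, to 0.20 for PRKAA2, a catalytic subunit of AMP-activated kinase. The median of the list was -0.013. With I3P added to SR1 the highest was USP2, a deubiquitinase, at 0.32 (limma adjusted p = 1.00).

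In the other bHLH-PAS genes, 13 of 15 measured, 1 passed. AHRR, the repressor that competes with AHR for ARNT, fell with SR1 from 8.54 ± 0.12 to 7.10 ± 0.26 (n = 4 each), a difference of -1.44 (SE 0.18, limma adjusted p = 0.0019). It rose to 8.46 ± 0.30 with I3P+SR1, by 1.37 over SR1 (adjusted p = 0.0022). AHR itself was 0.31 higher with SR1 and 0.30 lower with I3P+SR1 than with SR1 (a difference of -0.30), and did not pass in either (adjusted p = 1.00). Within this family AHRR therefore passed the test without a block, and none of the other 12 measured members did. Among endothelial markers, KDR was -0.54 with SR1 against DMSO and 0.56 with I3P+SR1 against SR1 (limma adjusted p = 0.61 and 0.47, or 0.037 and 0.032 with the replicate block). VWF, the other measured endothelial marker, was 0.21 with SR1 against DMSO and 0.02 with I3P+SR1 against SR1, and did not pass. The log2 of the summed levels of the 2 measured of 4 endothelial markers was 8.95 to 9.23 in DMSO, 8.91 to 9.08 in SR1 and 9.16 to 9.37 in I3P+SR1. The part of these markers in the levels of NPAS2 was not tested.

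The clock genes also differed between replicate numbers, a difference that did not enter the choice of NPAS2. A limma F test of the replicate number, fitted beside the treatments, passed for 5 of the 10 members, where 22.3% of all genes passed (3124 genes). ARNTL (adjusted p = 0.00054), NPAS2 (0.0019), NR1D2 (0.014), PER1 (0.040) and ARNTL2 (0.045) passed. CRY1 (0.14), PER2 (0.29), CLOCK (0.38), PER3 (0.42) and CRY2 (0.68) did not.

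Replicate 4 held the highest or the lowest mean for all 5 passing genes, in differing directions. The mean of ARNTL over the 4 treatments was 7.74, 7.75, 8.10 and 8.72 in replicates 1 to 4, highest in replicate 4. NPAS2 averaged 10.27, 10.37, 10.14 and 9.65, lowest there. PER1 was also lowest in replicate 4, with means of 8.52, 8.17, 8.07 and 7.82. NR1D2 was 10.34, 9.85, 10.20 and 10.40, lowest in replicate 2 and only slightly higher in replicate 4 than in replicate 1. ARNTL2 was 9.85, 9.98, 9.98 and 9.64. ARNTL and NPAS2, which encode partners in 1 complex, thus had their extremes in the same replicate with opposite signs. Extremes in replicate 4 were not particular to clock genes. VIM, DDB1 and SNAP25 were lowest and SIRT1 highest there (F test adjusted p = 0.0070, 0.0048, 0.0014 and 0.011). CSNK1D, NONO and VWF were also lowest in replicate 4 (F test adjusted p = 0.0072, 0.040 and 0.043), and TIPIN and KDR highest (0.030 each). CD44, EPAS1 and CSNK1E also passed, with their extremes in other replicates. Across all genes, the deviations of same-numbered arrays correlated most in replicate 4 in every pairwise comparison (0.51 to 0.65). In the wider pathway NFIL3, a repressor of the PAR-domain target genes, had the means 7.34, 7.61, 7.93 and 8.75 (adjusted p = 4.7e-05). BHLHE41, a bHLH repressor that acts on E-boxes, had 10.03, 9.73, 9.60 and 9.40 (adjusted p = 0.0062). These were the 2 of 7 measured second loop and output genes that passed.

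The number of members that passed depended on single arrays. It was 6 without I3P replicate 1, where PER2 passed too, and 2 without I3P+SR1 replicate 2, where NR1D2, PER1 and ARNTL2 did not pass. It was 3 without any one of DMSO replicates 1 to 4, I3P replicate 2, SR1 replicates 3 and 4 or I3P+SR1 replicate 4. NPAS2 and ARNTL passed in 16 of 16 such fits, NR1D2 in 15, PER1 and ARNTL2 in 4 each. Over all 14040 genes, the calls for replicate number also moved in these fits, from 2146 to 4695. Culture, harvest time and array processing cannot be told apart for a replicate number, because the sources used here give none of them.

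Splitting the squared deviations of each gene from its mean sets both sources of spread side by side. For NPAS2, treatment held 64.7%, replicate number 30.6% and the remainder 4.65%. ARNTL had 9.04% for treatment and 81.0% for replicate number, and NR1D2 had 11.1% and 67.9%. ARNTL2 had 47.8% and 38.0%. CRY2, at the other end, had 57.4% in the remainder. The medians over all genes were 14.2%, 34.6% and 44.2%. For NPAS2 the treatment share restates the differences that chose it.

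**Figure D3:**
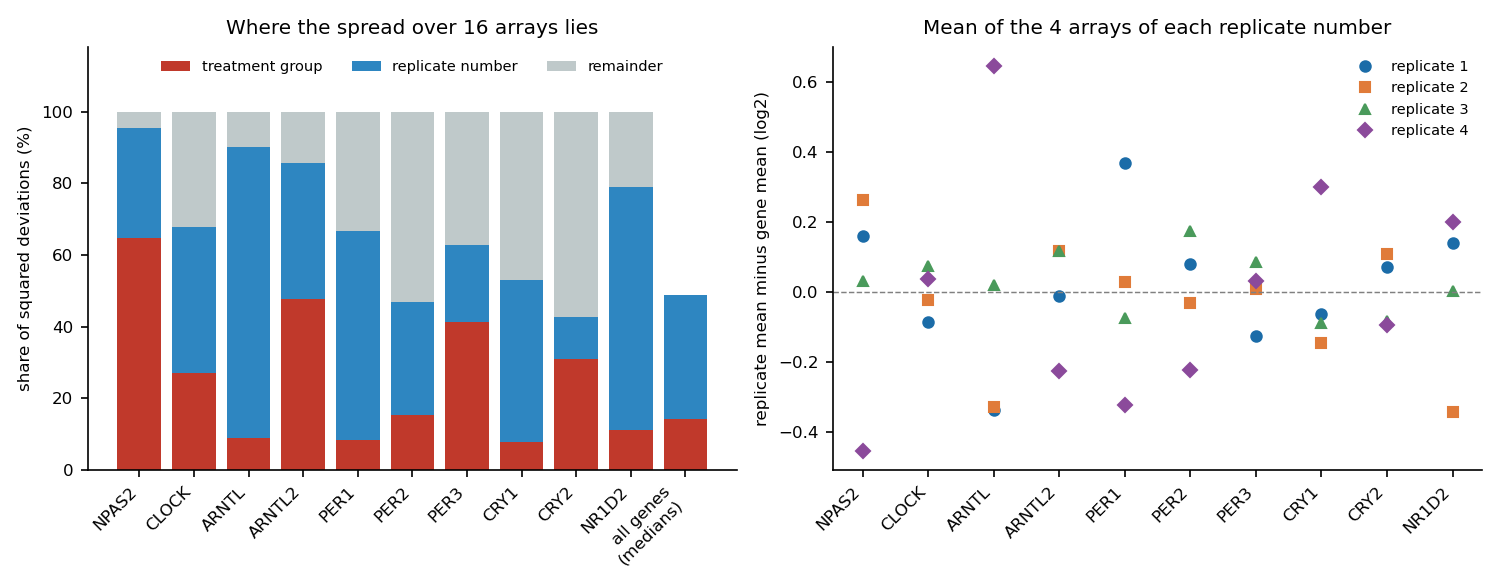
Share of the squared deviations of each clock gene over 16 arrays, in percent, that goes with treatment, with replicate number and with the remainder (left), and the mean of the 4 arrays of each replicate number minus the gene's mean, in log2 units (right; ARNTL is highest and NPAS2 lowest in replicate 4). The treatment share is 64.7% for NPAS2 and the replicate share 81.0% for ARNTL; the bar for all genes shows only the medians for treatment (14.2%) and replicate number (34.6%), which are taken separately.

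The 5 genes with a pattern most like NPAS2 were found by the root mean square difference, in log2 units over the 16 arrays, between values centred on each gene's mean. They were TBC1D8 (0.167), a gene of the Rab GTPase-activating family, GLIS1 (0.195), a zinc finger transcription factor, GREM1 (0.205), a secreted antagonist of bone morphogenetic proteins, NBEA (0.207), a BEACH-domain protein, and AGPAT9 (0.223), an acyltransferase of glycerolipid synthesis. The median over 14039 genes was 0.540. TBC1D8, GLIS1 and NBEA were dim, with SR1 means of 6.85, 6.77 and 6.91, under the array medians of 8.26 to 8.30. GREM1 and AGPAT9 were brighter, at 11.67 and 9.86. The nearest clock member, PER1, ranked 2608 with 0.472, CLOCK ranked 6740 with 0.536, and ARNTL ranked 13409 with 0.753. Values centred on each replicate number in place of the gene mean gave DLX2, EREG, JARID2, HK2 and GREM1, so that 1 of 5 names, GREM1, was shared.

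TBC1D8, the nearest, was 0.88 lower with SR1 than with DMSO (a difference of -0.88, SE 0.25) and 0.62 higher with I3P+SR1 than with SR1. It was chosen for its likeness, so these values carry no test. In the RefSeq gene table it lies on chromosome 2, as NPAS2 does, with RPL31 as the measured gene between them by start position. RPL31, a ribosomal protein gene, differed by -0.02 (SE 0.29) between SR1 and DMSO and by -0.02 between I3P+SR1 and SR1. On the other side of NPAS2 the nearest measured genes were NMS (0.14, SE 0.19, with SR1), CHST10 (-0.07, SE 0.14) and LONRF2 (-0.20, SE 0.37), and CNOT11, next after TBC1D8, was at -0.13 (SE 0.13). These neighbours were examined after TBC1D8 had been seen.

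**Figure D4:**
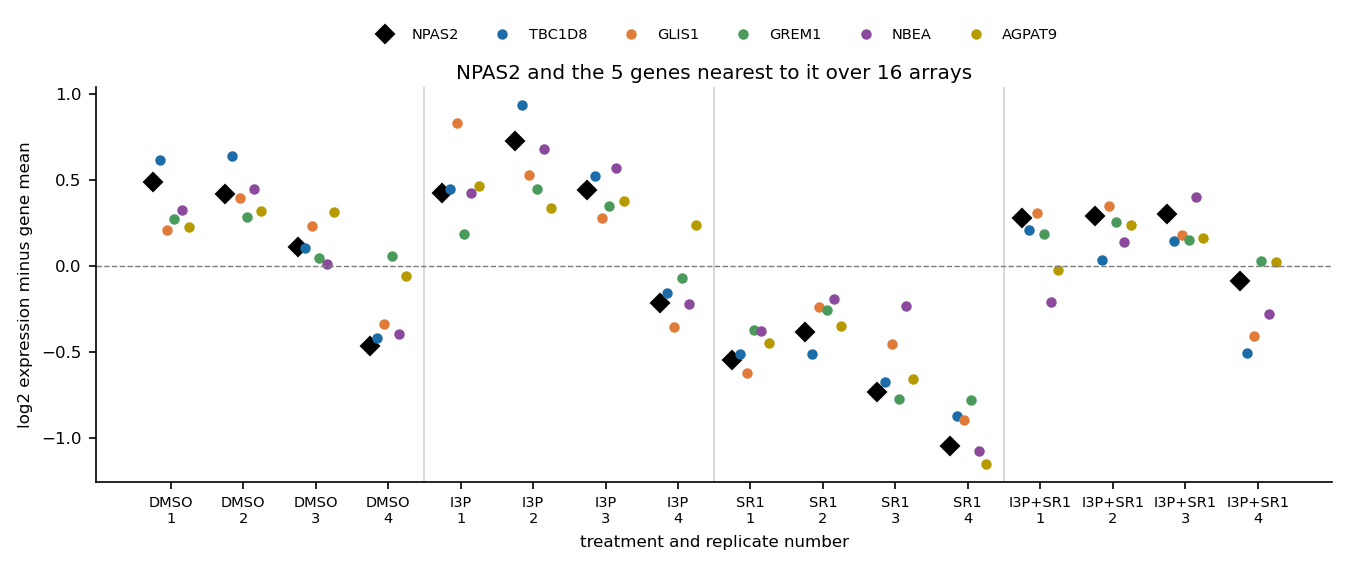
Log2 expression minus the gene's own mean in the 16 arrays, for NPAS2 (diamonds) and the 5 genes nearest to it (circles), by treatment and replicate number. The SR1 arrays of all 6 genes lie below 0, and those of I3P+SR1 lie on both sides of it for NPAS2, TBC1D8, GLIS1, NBEA and AGPAT9.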

How the data were processed

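Per the labels, total RNA of U-87MG cells was labelled from 100 ng input with biotin and hybridised to single-colour arrays. Per the submitters' processing notes, the oligo package and RMA made the deposited values, which are log2 expression; no spot intensities or detection calls were used here, and background correction and normalization had been done by the authors. RMA pulls low signals together and so shrinks differences of dim genes. Values ran from 2.13 to 13.8, array medians from 8.26 to 8.30; arrays have no read depth, and their number limits the precision. Of 16510 rows, 14096 had 1 symbol, 795 several and 1619 were not listed in the platform annotation; the row with the highest mean over 16 arrays was kept for each symbol with more than 1 row (52 symbols), leaving 14040 genes. Whether arrays of a group are separate cultures rests on the label "biological replicate" alone, so p-values measure the spread between these arrays.

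limma 3.58.1 in R 4.3.3 (lmFit, eBayes; 1 mean per treatment over all 16 arrays, two-sided, Benjamini-Hochberg over all 14040 genes, threshold 0.05) gave differences, SE and 95% intervals. The replicate number was tested with limma's F test in a fit of treatment plus replicate. The fit with no block and the F test were tested on simulated data that held no replicate effect. The fit with the replicate block was not tested in this way. Same-numbered arrays deviated together in SR1 against DMSO (correlations of deviations across genes 0.30 to 0.52), in I3P+SR1 against SR1 (0.37 to 0.65) and in I3P+SR1 against DMSO (0.22 to 0.52). Pairing by number was therefore considered there, through the replicate block. In I3P against DMSO (-0.07 to 0.51) and I3P+SR1 against I3P (-0.09 to 0.55) the numbers were not taken as pairs for any interval or p-value. Same-numbered differences of I3P from DMSO, also for CLOCK, are given as a description only. Intervals and adjusted p of treatment comparisons come from the fit with no block unless a block is named. Alternatives were a replicate block, a block for title series, each series alone, arrays centred on their medians, dim genes left out (the lowest quantile of 0.25), limma-trend with robust fitting and each array left out. The replicate block with each array left out was added after seeing the data. Named genes were all 10 members, the passing genes of each pathway list (or up to 3 with the smallest p) and the 5 genes nearest to NPAS2; GEO annotation symbols ARNTL, ARNTL2 are BMAL1, BMAL2 in RefSeq. Members and lists were chosen with earlier results of these data known.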

Additional observations from a re-analysis of the deposited data

Results flagged for a closer look

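Among 40 groups of 4 arrays (10 clock genes in 4 treatments), 3 held an array far from the other arrays of its group, by Dixon's criterion on the gap to the nearest array over the group's range; chance alone gives about 5% of groups. NPAS2 in I3P+SR1 was lowest in replicate 4, at 10.017, with the other arrays between 10.38 and 10.41 (gap over range 0.934). ARNTL in SR1 was highest in replicate 4, at 8.716 (0.831). NR1D2 in SR1 was lowest in replicate 2, at 9.993 (0.848).

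For CLOCK the same-numbered differences with I3P had opposite signs in the absence and presence of SR1. Every I3P array was above the same-numbered DMSO array, and every I3P+SR1 array was below the same-numbered SR1 array. In replicates 3 and 4 the I3P+SR1 and SR1 arrays nearly coincided, at 10.749 against 10.768 and 10.603 against 10.607. The difference between both responses was -0.19 (SE 0.14), or -0.23 without I3P replicate 1, the array that stood apart. How many of all genes show such opposite signs was not counted. The interaction term did not pass (limma adjusted p = 1.00).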

How the results depend on the processing

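With the replicate block, 1 of 10 members (NPAS2) was called in SR1 against DMSO and 1 in I3P+SR1 against SR1, against 0 with no block; with the title series as a block, 1 (NPAS2) was called in I3P+SR1 against SR1. Under the replicate block with each array left out, the count was 1 to 1 in both, in 16 of 16 fits. Nothing is read from the calls of NPAS2 here or below, since its choice used these contrasts. The block changed no other call of a clock gene. The members called for replicate number ranged from 2 to 6 with 1 array left out; the cause was not tested. The genes nearest to NPAS2 shared 1 of 5 names when values were centred on each replicate number. Over all genes, SR1 against DMSO gave 23 calls, 45 with the replicate block, 4 within SLI and 1 within SMI, and 9 to 25 with an array left out. I3P+SR1 against SR1 gave 16, 45 with the replicate block, 27 with the title series block, 1 within SLI and 1 within SMI (fewer samples), and 10 to 18 with an array left out. I3P+SR1 against I3P gave 1 within SLI against 0, and the interaction 0 within SLI against 1. Calls for replicate number ran from 2146 to 4695. Of 1380 recomputed log2 changes of clock genes, 3, all of NPAS2, passed where they had not. The sign was kept in 1295 and changed in 85, spread over 34 of the 60 pairs of gene and comparison; 0 of these were called in either fit, and the reported changes concerned were at most 0.22 in size. The 4 arrays per group limit these intervals, and whether a probe lies above background cannot be read from RMA values.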
